A study of Mus musculus with 9 samples.

Results

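In at least some tissues, imprinted genes are expressed from the maternal or the paternal copy alone, and many of them set the growth of the embryo. A number of them, active in embryonic mesenchyme, rise and fall together, in a network named after the zinc finger factor gene Plagl1. Here a set of 10 such genes, Ndn, Magel2, Plagl1, Peg3, Mest, Dlk1, Meg3, H19, Grb10 and Sgce, was followed in mouse embryonic fibroblasts (MEFs) deficient in endoplasmic reticulum (ER) thiol oxidases. The genes were chosen for imprinting and mesenchymal expression, and the set was also selected on the measured rise of Ndn in both mutants. Of the 10 genes, 9 had a probe set that the platform annotation gives to them alone, among 19938 genes in all, and each of the 9 had just 1 such probe set. H19, a growth-restraining RNA, was not analysed here.

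The cells were T antigen-transformed MEFs on the C57B/L6 background. The methods, however, name primary MEFs for some figures and T antigen-immortalized MEFs for others, without naming the arrays. The wild-type group (WT), the ERO1α and ERO1β double mutant group (DM) and the PRDX4 KO, ERO1α and ERO1β triple mutant group (TM) had 3 arrays each. ERO1α, ERO1β and PRDX4 are enzymes that introduce disulfide bonds in the ER. The labels call the first group wild type, whereas the methods on cell isolation describe control MEFs heterozygous for the Ero1α mutant allele and homozygous for the Ero1β mutant allele. If so, all 3 groups lack intact Ero1β. The methods derive the MEFs from mid-gestation embryos and leave unsaid how many embryos or cultures stand behind the arrays of a group. The p-values therefore measure only the spread between arrays, which may be technical. Values are log2 RMA levels, on which a difference of 1 is a doubling, and levels of different genes are not comparable. A gene was called, and is said to have risen or fallen, at a Benjamini-Hochberg adjusted p under 0.05 from limma over all genes with a change over 1.5-fold.

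Ero1a, encoding ERO1α, and Prdx4 were checked first. Ero1a was at 11.86, 9.46 and 9.06 in WT, DM and TM, and Prdx4 was at 10.56, 10.68 and 6.30. Ero1b was at 7.65, 7.70 and 7.94. Xist, expressed from an inactivated X, was at 12.56 in DM but at 5.70 in WT and 5.72 in TM, and the Y-linked genes Eif2s3y, Kdm5d and Uty fell in DM by 2.01, 1.49 and 1.74 (adjusted p = 8.43e-09, 1.21e-09 and 4.51e-08). None of these 4 was called between TM and WT. DM thus differed from WT and TM in the expression of sex-linked genes, and in every comparison with DM a difference in sex cannot be told apart from genotype. None of the 9 genes lies on a sex chromosome. Of the 10 fibroblast markers, Vim was at 14.15 to 14.18 in all genotypes, and 1 rose and 3 fell in DM while 3 rose and none fell in TM. Of all genes, 5.28% rose and 5.67% fell in DM, and 5.59% rose and 3.56% fell in TM. In DM Pdgfrb rose by 1.18 (adjusted p = 6.18e-09), and Pdgfra, Col1a2 and Twist2 fell by 1.91, 1.71 and 0.78 (adjusted p = 1.11e-10, 1.1e-09 and 1.07e-06). In TM Thy1, Pdgfrb and Prrx1 rose by 2.93, 1.23 and 0.87 (adjusted p = 1.03e-10, 4.56e-09 and 6.8e-08). The 3 DM arrays of Prrx1 hold 1 identical value. The mean level of the 10 was 10.90 to 10.98 in WT, 10.66 to 10.68 in DM and 11.40 to 11.48 in TM arrays. Of 8 epithelial markers 4 rose and 1 fell in DM, and 0 rose and 1 fell in TM, against the same shares of all genes. Upk3b rose by 5.07 in DM (adjusted p = 6.55e-13), whereas Msln fell by 1.43 in DM and 3.61 in TM (adjusted p = 1.52e-09 and 7.56e-13). The mean level of the 8 was 7.71 to 7.76 in WT, 8.72 to 8.82 in DM and 7.18 to 7.30 in TM arrays. The part of these cell type markers in the differences below was not tested. Fewer cells of a type and less RNA per cell cannot be told apart in such bulk samples.

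The promoters of the adjacent genes Ndn and Magel2 and of the adjacent genes Dlk1 and Meg3 are shown for comparison (RefSeq, GRCm38.p6, each from upstream of the annotated start to just past it, plus strand, 5′ to 3′). The signals of Ndn and Magel2 parted in the mutants, though that of Magel2 was not shown to be above background. Those of Dlk1 and Meg3 moved alike. Capitals mark each CpG, the dinucleotide whose methylation distinguishes the parental copies of imprinted genes.
Ndn, chr7:62348027-62348326: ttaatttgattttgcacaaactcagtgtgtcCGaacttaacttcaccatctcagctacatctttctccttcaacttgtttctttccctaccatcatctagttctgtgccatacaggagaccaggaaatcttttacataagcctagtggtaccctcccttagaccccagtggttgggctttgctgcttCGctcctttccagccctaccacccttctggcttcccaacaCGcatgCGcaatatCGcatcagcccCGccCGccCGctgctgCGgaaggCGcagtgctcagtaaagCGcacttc
Magel2, chr7:62376729-62377028: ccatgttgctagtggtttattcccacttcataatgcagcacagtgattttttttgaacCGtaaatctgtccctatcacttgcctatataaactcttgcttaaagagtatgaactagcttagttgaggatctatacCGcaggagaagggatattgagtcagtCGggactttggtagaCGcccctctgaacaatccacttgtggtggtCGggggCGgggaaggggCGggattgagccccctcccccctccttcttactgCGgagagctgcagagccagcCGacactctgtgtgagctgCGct
Dlk1, chr12:109452573-109452872: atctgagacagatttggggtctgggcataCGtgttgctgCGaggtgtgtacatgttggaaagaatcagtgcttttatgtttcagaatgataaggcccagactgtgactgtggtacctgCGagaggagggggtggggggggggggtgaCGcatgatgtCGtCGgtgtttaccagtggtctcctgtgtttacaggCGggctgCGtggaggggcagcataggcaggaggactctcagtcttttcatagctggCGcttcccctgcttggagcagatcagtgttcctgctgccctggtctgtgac
Meg3, chr12:109540746-109541045: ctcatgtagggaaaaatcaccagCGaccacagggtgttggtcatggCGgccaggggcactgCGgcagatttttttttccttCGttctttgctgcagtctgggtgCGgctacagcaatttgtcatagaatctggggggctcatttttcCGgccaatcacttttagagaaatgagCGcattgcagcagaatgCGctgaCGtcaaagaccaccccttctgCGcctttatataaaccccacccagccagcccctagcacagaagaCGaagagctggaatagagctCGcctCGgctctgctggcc
Ndn and Magel2 hold 11 and 10 CpGs in these windows, and Dlk1 and Meg3 hold 9 and 13. A further promoter of Meg3, farther along, holds 1. The median over 32851 promoters of the same length was 7. In all, 8 of the 10 genes have 12 annotated promoters in the table, with 1 to 45 CpGs, the highest in a promoter of Grb10. The palindrome GGGGCCCC, which PLAGL1 is known to bind, was found in 1 of the 12 promoters, that of Peg3, against 1.08% of all promoters. The motif TGCCGC of the imprint-keeping factor ZFP57, searched on both strands, was found in 5 of the 12, against 11.6% of all promoters. These were a promoter each of Plagl1, Meg3 and Grb10 and a pair of Mest that overlap almost wholly, while the other promoters of Mest, Meg3 and Grb10 do not hold it. Methylation was not analysed here.

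Ndn encodes necdin, a MAGE family protein that restrains proliferation and binds E2F transcription factors. Its log2 level was 6.15, 6.10 and 6.27 in the WT arrays, 8.88, 8.84 and 8.88 in DM, and 10.88, 10.86 and 11.00 in TM. The 3 genotypes did not overlap, and WT was lowest and TM highest. Ndn was higher than in WT by 2.69 ± 0.063 (SE) in DM, a 6.45-fold difference, and by 4.74 ± 0.063 in TM, a 26.7-fold difference. TM exceeded DM by 2.05. The WT level is far below the array medians of 7.62 to 7.72, and Prdx4 still read 5.96, 6.75 and 6.17 in the TM arrays, where it is disrupted. The WT signal of Ndn was therefore not shown to be above background, and its folds over WT are ratios of signals that can understate the difference in RNA. The same holds for Peg3, at 6.54 to 6.77 in WT. As Ndn was chosen for this rise, its differences are a description and carry no test.

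Magel2, which encodes another MAGE protein, a partner of the ubiquitin ligase TRIM27, is the next coding gene to Ndn and is likewise expressed from the paternal copy. Its level was 7.22, 6.84 and 7.04 in WT, 7.20, 7.18 and 6.97 in DM, and 6.81, 7.12 and 7.04 in TM arrays. All genotypes overlapped, likewise below the array medians. The signal of Magel2 was therefore not shown to be above background in any genotype. The difference from WT was 0.09 in DM (95% interval -0.14 to 0.32) and -0.04 in TM (95% interval -0.28 to 0.19). Mkrn3 and Peg12, paternally expressed genes beyond Magel2, had differences from WT of 0.02 and 0.11 in DM and of 0.07 and 0.17 in TM and were not called. Mkrn3 was at 6.08, 6.10 and 6.14 in WT, DM and TM, and its signal was not shown to be above background. Atp10a, on the other side of Ndn, fell by 0.83 in DM (adjusted p = 1.07e-07) and was at WT level plus 0.02 in TM (adjusted p = 0.867). Snrpn and Ube3a were not analysed here.

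**Figure D1:**
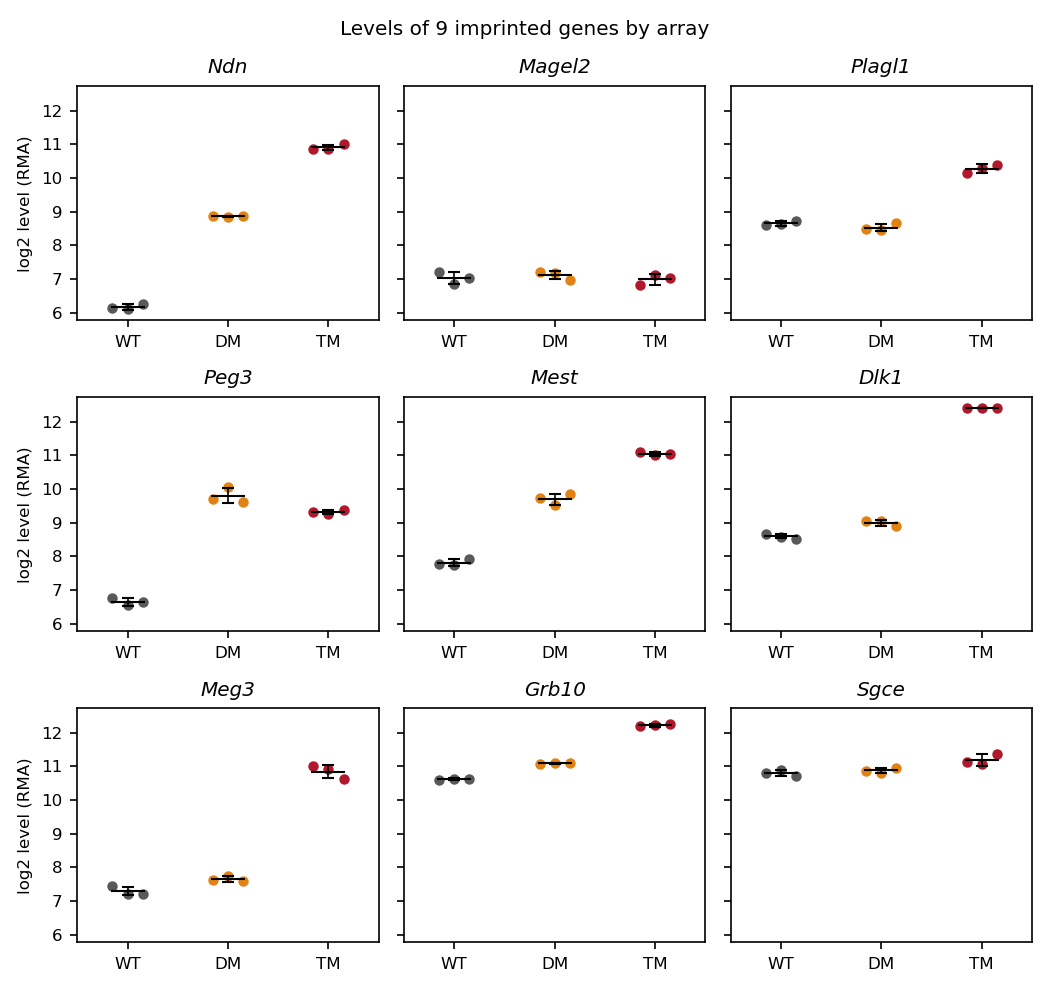
Log2 RMA level (vertical axis) of each gene in WT (grey), DM (orange) and TM (red) MEFs. Points are single arrays, and bars are the mean ± SD (n = 3 arrays). Ndn and Mest step up from WT to DM to TM, Peg3 is highest in DM, Plagl1, Dlk1, Meg3 and Grb10 are highest in TM, and Magel2 overlaps between the genotypes.

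Both zinc finger genes of the set differed from WT, in distinct ways. Plagl1 encodes a transcription factor that restrains the cell cycle and acts on other imprinted genes. Its level was 8.61, 8.62 and 8.73 in WT and 8.48, 8.46 and 8.66 in DM, which overlap, and 10.14, 10.29 and 10.40 in TM, above both. Its difference from WT was -0.12 ± 0.079 in DM (95% interval -0.29 to 0.06) and 1.63 ± 0.079 in TM. TM was 1.74 higher than DM (adjusted p = 3.88e-09). Among its neighbours Phactr2, encoding a phosphatase and actin regulator, rose by 0.62 in DM and 1.21 in TM (adjusted p = 1.37e-05 and 2.88e-08), Ltv1, of ribosome assembly, fell by 0.94 in DM (adjusted p = 6.99e-07), and Sf3b5 was not called.

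Peg3 encodes a large zinc finger protein linked to fetal growth and maternal behaviour. Its level was 6.77, 6.54 and 6.65 in WT, 9.72, 10.06 and 9.63 in DM, and 9.32, 9.25 and 9.38 in TM arrays. It was the only gene of the 9 with a DM level above its TM level in every array. Peg3 differed from WT by 3.15 ± 0.10 in DM and by 2.66 ± 0.10 in TM. TM was lower than DM by 0.49 (adjusted p = 0.00248), under the 1.5-fold limit. Neither of the measured neighbours of Peg3, Usp29 and Zim1, was called. Their differences from WT were 0.08 and 0.09 in DM and -0.02 and 0.25 in TM. Usp29 was at 6.08, 6.16 and 6.05 and Zim1 at 6.12, 6.22 and 6.38 in WT, DM and TM. Neither signal was shown to be above background.

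Dlk1 and Grb10 act in growth signalling. Dlk1 encodes a membrane protein related to NOTCH ligands that holds back adipocyte differentiation. Its level was 8.67, 8.59 and 8.53 in WT, 9.04, 9.04 and 8.90 in DM, and 12.42, 12.40 and 12.42 in TM arrays. The DM arrays lay just above WT and the TM arrays far above both. Dlk1 differed from WT by 0.39 ± 0.060 in DM and 3.81 ± 0.060 in TM, 1.31-fold and 14.1-fold, and TM exceeded DM by 3.42 (adjusted p = 1.11e-12). Among 7 adipocyte markers, Pparg and Lpl rose in both mutants, by 2.19 and 3.75 in DM (adjusted p = 7.31e-10 and 3.44e-11) and by 1.42 and 0.98 in TM (adjusted p = 4.95e-08 and 1.4e-05). Of all genes, 5.28% rose in DM and 5.59% in TM. None of the 7 was called lower than in WT, and Fabp4 differed by -0.25 in DM (adjusted p = 0.0418), under the 1.5-fold limit, with all DM arrays below those of WT. In TM Fabp4 differed from WT by 0.48 (adjusted p = 0.000886), also under that limit. From DM to TM Fabp4 rose by 0.72 (adjusted p = 3.27e-05), and Pparg and Lpl fell by 0.77 and 2.78 (adjusted p = 1.84e-05 and 7.77e-10). The other 4 were called in no comparison.

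Grb10 encodes an adaptor that binds the insulin and IGF receptors and limits growth, and is maternally expressed outside the brain. Its level was 10.59, 10.64 and 10.62 in WT, 11.07, 11.10 and 11.10 in DM, and 12.19, 12.22 and 12.26 in TM arrays. The 3 genotypes did not overlap. Grb10 differed from WT by 0.47 ± 0.052 in DM and 1.60 ± 0.052 in TM, and TM exceeded DM by 1.14 (adjusted p = 4.07e-09). Its neighbours Ddc and Cobl were not called, with differences of 0.27 and 0.39 in DM and 0.02 and 0.25 in TM.

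Mest encodes a hydrolase-like protein of embryonic mesoderm. Its level was 7.76, 7.75 and 7.93 in WT, 9.73, 9.53 and 9.85 in DM, and 11.11, 11.00 and 11.04 in TM arrays, and rose from WT to DM to TM without overlap, as for Ndn. Mest differed from WT by 1.89 ± 0.083 in DM and 3.24 ± 0.083 in TM, 3.70-fold and 9.42-fold, and TM exceeded DM by 1.35 (adjusted p = 7.11e-08). Copg2, which is next to Mest in the gene order, differed from WT by -0.07 and -0.10 and was not called, nor was Klf14.

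Sgce encodes ε-sarcoglycan, a membrane protein of the dystrophin-associated complex. Its level was 10.82, 10.89 and 10.73 in WT, 10.88, 10.82 and 10.96 in DM, and 11.12, 11.07 and 11.38 in TM arrays. WT and DM overlapped, and TM lay above both by a small margin. The difference from WT was 0.07 (95% interval -0.11 to 0.26) in DM and 0.38 (95% interval 0.19 to 0.56) in TM, and TM exceeded DM by 0.30 (adjusted p = 0.015), under the 1.5-fold limit. Its neighbour Peg10, a retrotransposon-derived gene that is likewise paternally expressed, fell by 0.71 in TM (adjusted p = 1.72e-05), while its log2 fold change in DM was 0.31. Asb4, a maternally expressed gene farther along, rose by 1.70 in TM (adjusted p = 5.08e-08), and Ppp1r9a rose by 0.87 in DM (adjusted p = 3.57e-06). The others of the 8 neighbours, Casd1, Tfpi2, Calcr, Pon2 and Pon3, were not called.

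Meg3, a maternally expressed long RNA, follows Dlk1 in the gene order. Its level was 7.44, 7.22 and 7.22 in WT, 7.62, 7.74 and 7.58 in DM, and 11.00, 10.91 and 10.64 in TM arrays. DM lay narrowly above WT, and TM far above both. The WT level of Meg3 lies below the array medians of 7.62 to 7.72, and how far it exceeds background was not analysed here. The difference from WT was 0.35 ± 0.093 in DM and 3.56 ± 0.093 in TM, 1.28-fold and 11.8-fold, and TM exceeded DM by 3.20 (adjusted p = 6.44e-11). Rian, another maternally expressed RNA of this domain, rose by 1.73 in TM (adjusted p = 1.57e-08) and by 1.48 over DM (adjusted p = 8.69e-08), and differed by 0.26 between DM and WT. Its level of 5.77 in WT and 6.03 in DM was not shown to be above background. Dlk1, from the paternal copy, and Meg3 and Rian, from the maternal copy, were thus all higher in TM than in WT. Rtl1 and Dio3, paternally expressed genes of the same domain, differed from WT by 0.23 and 0.08 in TM and were not called, nor were Begain and Wars, which flank it. Dio3 was at 6.33, 6.34 and 6.41 in WT, DM and TM, likewise not shown to be above background.

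**Figure D2:**
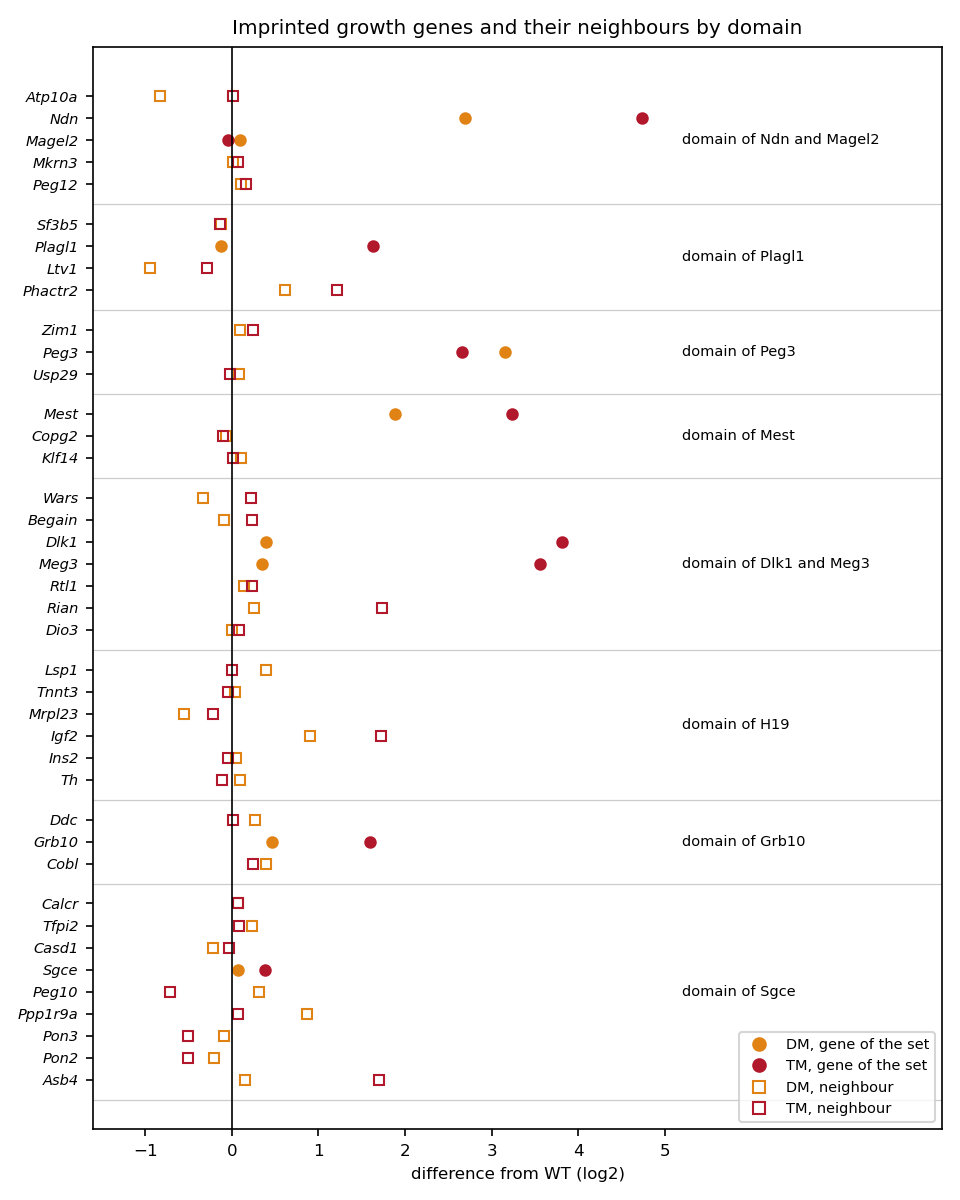
Log2 difference from WT (horizontal axis) in DM (orange) and TM (red) of the measured genes of each imprinted domain, in gene order from top to bottom. Filled circles are genes of the set and open squares are neighbours. Ndn lies at 2.69 and 4.74 while Magel2 beside it lies near 0, and Dlk1, Meg3 and Rian lie at 3.81, 3.56 and 1.73 in TM.

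Among the 9 genes the difference from WT ran from -0.12 to 3.15 in DM, with a median of 0.39, and from -0.04 to 4.74 in TM, with a median of 2.66. The median of all genes was 0.025 in DM and -0.029 in TM. Higher in DM were called 3 of the 9, Ndn, Peg3 and Mest, against 5.28% of all genes, and lower for 0, against 5.67%. In TM, 7 were called higher against 5.59% of all genes, all but Magel2 and Sgce, and 0 lower against 3.56%. The arrays of 6 genes in DM and of 8 in TM lay wholly above those of WT, which 22.5% and 18.3% of all genes did. The choice of the set used these comparisons and both share the WT arrays, so nothing is read from these counts. Compared directly, with Ndn left aside, 5 of 8 were called higher in TM than in DM (Plagl1, Mest, Dlk1, Meg3 and Grb10), against 4.68% of all genes, and 0 lower, against 3.61%. The negative differences were those of Peg3 and Magel2, both under the 1.5-fold limit, so the limma count of lower genes is also 0 at an unadjusted p under 0.05 with that limit kept. The TM arrays lay wholly above the DM arrays in 6 of these 8, against 18.5% of all genes, and wholly below them in 1, Peg3. Magel2 differed by -0.13 (95% interval -0.36 to 0.10, adjusted p = 0.376). The choice of the set did not name the comparison of TM with DM, but it was made with results of these arrays known.

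**Figure D3:**
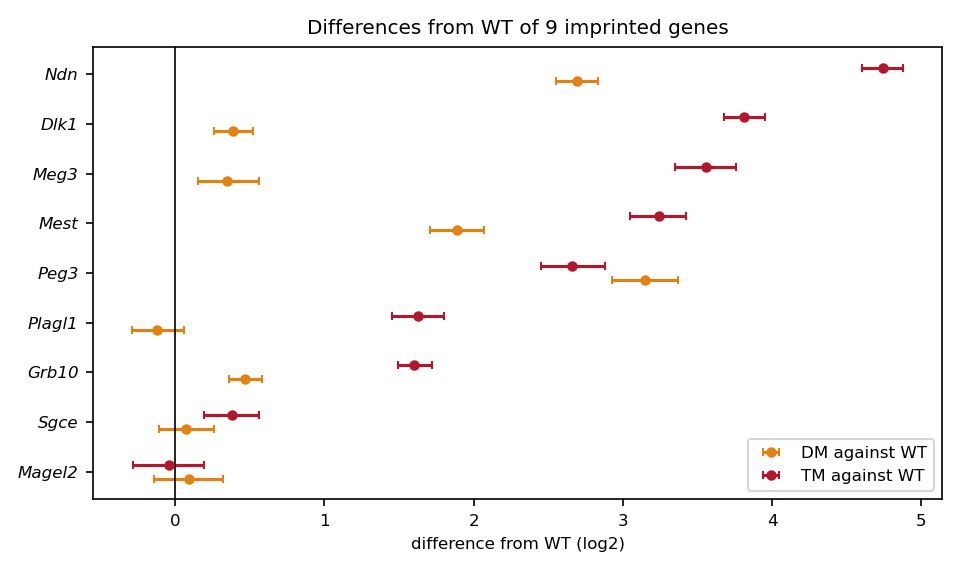
Log2 difference from WT (horizontal axis) of each gene in DM (orange) and TM (red), with 95% intervals from limma (n = 3 arrays of each genotype). Peg3 is the gene whose DM point lies to the right of its TM point by more than both intervals, and the DM points of Plagl1, Sgce and Magel2 have intervals that include 0.

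Other imprinted genes, which the choice of the set did not use, included calls in both directions. Their list was, however, made with earlier results of these data known. Of 43 measured, 5 rose and 3 fell in DM, against 5.28% and 5.67% of all genes. In TM 6 rose and 4 fell, against 5.59% and 3.56%, and 5 were higher and 4 lower in TM than in DM, against 4.68% and 3.61%. With so few calls, the counts are not read as particular to imprinted genes. The median difference was 0.08 in DM, 0.01 in TM and -0.03 between them, and 31 of the 43 were called in no comparison. The share of all genes called in no comparison was not analysed here, so nothing is read from that count. Of the 16 genes listed as paternally expressed, Igf2, Nnat and Airn rose in both mutants, and Peg10 fell in TM. Of the 27 listed as maternally expressed, Dcn rose in both mutants, Ppp1r9a in DM, and Rian and Asb4 in TM, while Cdkn1c and Phlda2 fell in both, Atp10a in DM and Gatm in TM. Which copy of these genes the MEFs express, or whether they express both, was not analysed here.

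Igf2, the fetal growth factor gene beside H19, was at 7.56 ± 0.088 in WT, 8.46 ± 0.18 in DM and 9.28 ± 0.043 in TM (mean ± SD, n = 3 arrays each, as below). It rose by 0.90 in DM (adjusted p = 3.37e-06) and by 1.72 in TM (adjusted p = 7.58e-09), and by 0.82 from DM to TM (adjusted p = 9.05e-06). The other 5 listed neighbours of H19 were not called. Igf2r, which encodes the receptor that clears IGF2, had differences of 0.17 and 0.21 from WT and was not called. Dcn, encoding the proteoglycan decorin, rose by 1.14 in DM (adjusted p = 1.22e-08) and 1.83 in TM (adjusted p = 1.74e-10). Its 3 DM arrays hold 1 identical value, so its spread is understated.

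Phlda2, a placental growth restrainer, fell from 9.56 ± 0.089 in WT to 7.65 ± 0.10 in DM and 7.61 ± 0.074 in TM (adjusted p = 4.34e-10 and 4.19e-10). Cdkn1c, which encodes the kinase inhibitor P57 and lies in the same domain, fell by 1.39 and 1.33 (adjusted p = 2.78e-09 and 4.75e-09). Gatm, of creatine synthesis, fell by 3.58 in TM (adjusted p = 3.35e-12) and differed by -0.12 from WT in DM (adjusted p = 0.241). Nnat, encoding a small membrane protein of developing neurons, rose by 1.70 in DM (adjusted p = 5.44e-08) and 1.00 in TM (adjusted p = 9.36e-06), and Airn, the antisense RNA of Igf2r, by 0.64 and 0.75 (adjusted p = 2.02e-05 and 5.13e-06). Of the 5 measured imprinted genes of the Plagl1 network outside the set, Igf2 and Dcn thus rose in both mutants, Cdkn1c fell in both, Gatm fell in TM and Igf2r was not called.

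**Figure D4:**
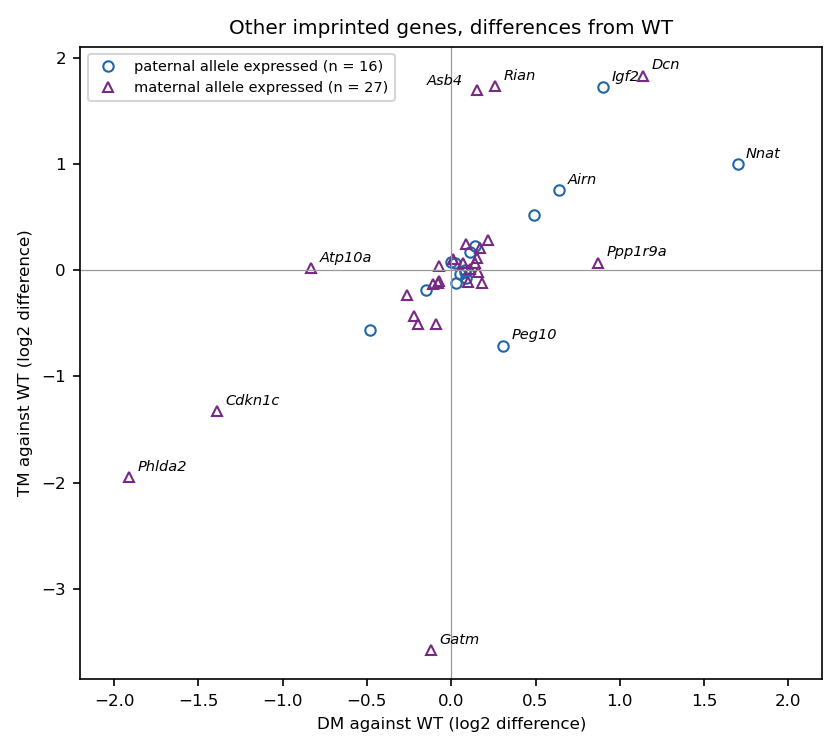
Log2 difference from WT in DM (horizontal axis) and TM (vertical axis) of 43 imprinted genes outside the set, listed as paternally (circles) or maternally (triangles) expressed. Both axes share the WT arrays. Genes called in any comparison are named, with Dcn, Igf2, Nnat and Airn at the upper right and Phlda2 and Cdkn1c at the lower left.

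Genes tied to necdin and to the keeping of imprints were listed as well. Of 15 MAGE family genes and partners of necdin and MAGEL2, 1 rose and 2 fell in DM, and 1 rose and 1 fell in TM, against 5.28% higher and 5.67% lower in DM and 5.59% and 3.56% in TM of all genes, and nothing particular to the family is read from so few calls. Maged1, an X-linked necdin relative, rose by 0.75 in DM (adjusted p = 2.65e-07), the group that differs in sex-linked genes, and Mageh1 by 0.60 in TM (adjusted p = 1.62e-05), whereas Nsmce3 fell by 0.65 in DM (adjusted p = 1.46e-05). E2f4, a member of the E2F family, fell by 0.81 and 0.77 in DM and TM (adjusted p = 6.11e-07 and 1.1e-06). Of 14 factors of DNA methylation and imprint keeping, none was called in DM, and Tet3, which encodes an oxidase of methylated cytosine, fell by 0.90 in TM (adjusted p = 5.93e-06). The shares of all genes were 5.28% higher and 5.67% lower in DM, and 3.56% lower in TM. Tet2, Tet3 and Dnmt3a were lower in TM than in DM, by 0.79, 0.79 and 0.66 (adjusted p = 2.49e-06, 2.18e-05 and 4.38e-06). Of all genes 3.61% were lower in TM than in DM, and nothing particular to these factors is read from so few calls. Dnmt1, the maintenance methyltransferase gene, was 0.07 below WT in TM and was not called.

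Necdin is abundant in neurons, so neuron and glia markers were checked. Of 10 measured, Syt1 rose by 0.72 and Map2 fell by 1.32 in DM (adjusted p = 6.25e-06 and 3.3e-08), and Stmn2 rose by 2.10 and Map2 by 0.73 in TM (adjusted p = 8.01e-10 and 9.6e-06). The shares of all genes were 5.28% higher and 5.67% lower in DM, and 5.59% higher and 3.56% lower in TM. Elavl4 differed by 0.54 in TM (adjusted p = 0.000387), under the 1.5-fold limit. The mean level of the 10 was 7.06 to 7.12 in WT, 7.02 to 7.10 in DM and 7.41 to 7.46 in TM arrays. The remaining 6, Tubb3, Snap25, Rbfox3, Elavl3, Gfap and Sox10, were not called in any comparison. None of 8 skeletal muscle, 5 endothelial and 5 macrophage and leukocyte markers was called in any comparison.

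By the Pearson correlation of log2 levels over the 9 arrays, the genes most like Ndn among 1387 others whose genotype means span at least 1 were Cp (r = 0.9992), Lgi2 (0.9985), Ptx3 (0.9985), Sfrp2 (0.9984) and Kcnq5 (0.9982). With 3 genotypes, such an r says only that the steps from WT to DM to TM are in the same proportion. The steps themselves were 1.51 and 1.10 for Cp, which encodes ceruloplasmin, and 3.43 and 2.19 for Sfrp2, a secreted Wnt antagonist gene, against 2.69 and 2.05 for Ndn.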

How the data were processed

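RNA of MEFs of 3 genotypes, in triplicate, was hybridised to Affymetrix Gene ST arrays. The authors' deposited values are log2 RMA values for 35556 probe sets (background correction, normalization between arrays and probe summary were done before deposit, in GeneSpring GX). The genome build was not given in the sources used here. The platform annotation gives 1 symbol to 21789 probe sets and several to 1621, and leaves out 12146. Only the first kind was named, with symbols looked up by identifier in RefSeq GRCm38.p6 (21698 matched), and the brightest probe set per gene was kept.

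A single limma fit (version 3.58.1, R 4.3.3) took in the 9 arrays (6 residual degrees of freedom), with Benjamini-Hochberg adjustment over 19938 genes. The fit was also run on simulated data with independent normal noise, which cannot vouch for the p-values of these arrays. The number of arrays limits the precision. Arrays of 1 genotype correlated at 0.994 to 0.997. In 4 of the 9 genes of the set, 2 arrays hold 1 identical value, the median of the 9 arrays, and in none do all 3 of a genotype. The set and the gene lists were chosen with earlier results of these data known. Named genes were the set, the mutated genes, called genes of the lists (of larger lists those with the largest changes) and the 5 genes most like Ndn. Genes outside this rule (Vim, listed genes that were not called) are named for the level or range they show. With the 1.5-fold limit kept, the 68 list counts of 0 were also 0 at an unadjusted p under 0.05, by limma and by Student's t statistic. That check could hardly fail, as the fold limit decides nearly all calls. By limma without adjustment, 1053, 1115 and 933 genes were higher in DM, in TM and in TM against DM. Called higher were 1052, 1115 and 933.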

Additional observations from a re-analysis of the deposited data

How the results depend on the processing

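The alternatives were other scalings, each array left out in turn, the replicate number as a block and fits of the 6 arrays compared. Others were means of probe sets, a filter on dim genes, other variance models, an unpaired Student's t-test with adjustment, and other fold limits. Of 429 recomputed differences of the 9 genes, 421 were judged the same and none reversed after a call. Many of the 429 could not move, so this tally overstates how far the differences were tried. The replicate block, the fits of the 6 arrays compared, the means of probe sets and the filter on dim genes leave a difference unchanged. So does leaving out an array of the genotype not compared. Differences from WT, and those of Ndn, were judged by a move under the spread between arrays. Differences between TM and DM of the other genes were judged by an unchanged call, also where the move exceeded that spread. The difference of Ndn between DM and WT was 2.60 with median centring, which moved the median of all genes to -0.0656 in DM and -0.105 in TM. Same-numbered arrays did not deviate together (r = -0.239 to 0.168), so the numbers do not pair the arrays. With the replicate block, 5 genes of the set other than Ndn were again called higher in TM than in DM, and no count moved by over 1.5 times. With a 2-fold limit, 527 genes were higher and 358 lower in DM, 558 and 223 in TM, and 408 and 268 in TM against DM. Other imprinted genes called were then 2 higher in DM, and 2 higher and 2 lower in TM against DM. With no fold limit, 3398 genes were higher and 3942 lower in DM, 2757 and 3581 in TM, and 3070 and 3280 in TM against DM. Other imprinted genes were then 11 higher and 6 lower in DM, 11 and 10 in TM, and 9 lower in TM against DM, and 1 gene of the set, Peg3, was lower in TM than in DM. With the filter on dim genes, which left 10510, 3 other imprinted genes were higher in TM than in DM. Depth does not apply to arrays. How far levels below the array medians, such as those of Magel2 and of Ndn, Peg3 and Meg3 in WT, lie above background was not analysed here.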
